A study of Arabidopsis thaliana with 20 samples.

Results

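SPCH (SPEECHLESS, AT5G53210) and STOMAGEN (EPFL9, AT4G12970) are genes of stomatal development, and they are described here across all 10 groups of a submergence experiment on Arabidopsis thaliana. They were chosen by locus, with earlier results of these data known. They make up 2 of the 13356 genes that had a probe set naming 1 gene, and each had a single such probe set, 248247_at for SPCH and 254794_at for STOMAGEN. Transcripts were measured on Affymetrix ATH1 arrays in whole shoots (rosette leaves) and whole roots of the accession Col-0, with no transgene, at a rosette of 9 to 10 leaves. In each tissue the groups were plants in light at 0 h, plants kept in air in darkness for 7 h or 24 h, and plants under water in darkness for 7 h or 24 h. All plants had grown at 20 °C under a photoperiod of 9 h, and the treatments began 2 h into the light. Every group held 2 arrays, which the series' design ascribes to independent replicate experiments, so precision is limited by how few arrays there are. The series' design calls the rosette leaf and root RNA pools, and no source used here gives the number of plants in one.

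Stomata are the pores of the leaf epidermis, and each arises from a lineage of asymmetric divisions. SPCH encodes a basic helix-loop-helix (bHLH) transcription factor that starts this lineage in young epidermal cells. The related bHLH factors MUTE and FAMA act later, MUTE in ending the asymmetric divisions and FAMA in forming guard cells. STOMAGEN encodes a secreted cysteine-rich peptide that is made in the mesophyll and raises the number of stomata. It competes with the inhibitory EPF peptides at receptors of the ERECTA family and TMM. Below those receptors a MAP kinase cascade lowers the stability of the SPCH protein, a step that transcript levels do not show.

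Values below are log2 expression values made with RMA, which combines the probes of a probe set after background correction and quantile normalization. Levels of SPCH and STOMAGEN come from different probes and are not set against each other. A change is the log2 difference of 2 group means, given with its standard error (SE) from a limma fit over all 20 arrays. It was called when its p, adjusted over all 22746 probe sets, was under 0.05. In whole tissue, fewer cells that express a gene and less RNA per cell cannot be told apart.

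Light shoots held the highest level of both transcripts, and roots held a low level in every group, as the plot of both genes on each array shows. On the 10 root arrays SPCH ran from 3.47 through a median of 3.82 to 3.95, and STOMAGEN from 3.43 through 3.64 to 3.82. Light shoots read 6.27 and 5.76 for SPCH and 9.43 and 9.30 for STOMAGEN, all above every root array. The shoot level in light exceeded the root level by 2.17 for SPCH (SE 0.16, adjusted p = 8.2e-10) and by 5.79 for STOMAGEN (SE 0.13, adjusted p = 1.8e-16). In that comparison 24.3% of all probe sets were called higher in shoots, and 59.1% were called either way. Roots served as the background level of each probe set, 3.77 ± 0.15 for SPCH and 3.64 ± 0.12 for STOMAGEN (mean ± SD over 10 root arrays). The lowest value in the table was 2.83 and the array medians lay above 6, so both backgrounds were low on these arrays. If the root signal is background alone, each shoot minus root difference is a lower limit, and a fall in roots could not have been measured.

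**Figure D1:**
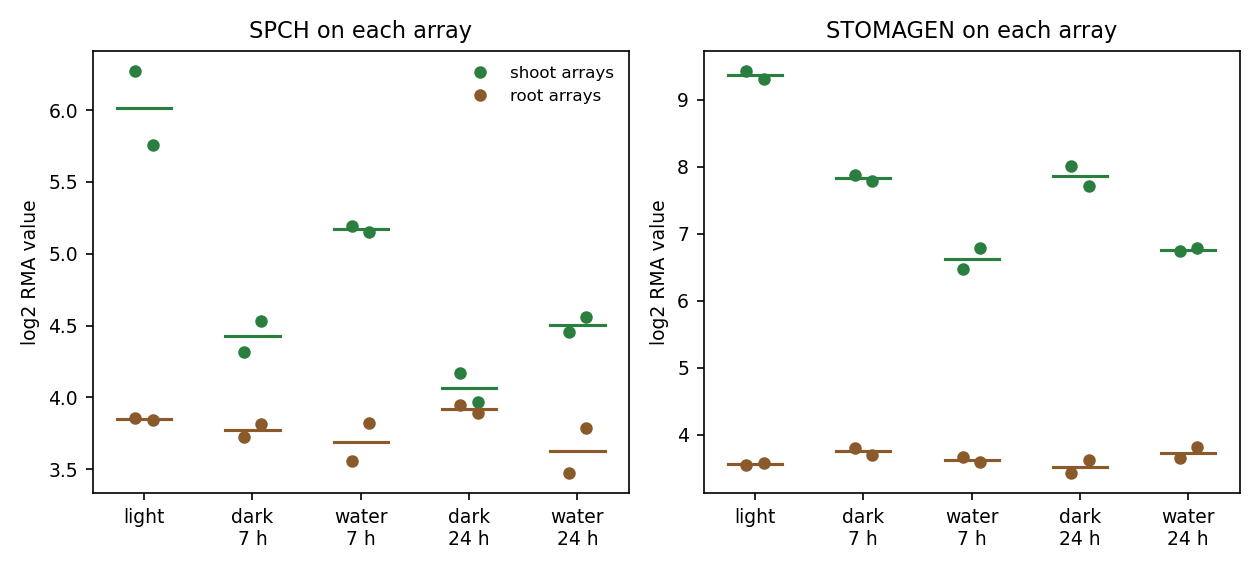
Log2 RMA values of SPCH (left) and STOMAGEN (right) on each of the 20 arrays by condition, with shoots in green and roots in brown; points are arrays and bars are means of 2 arrays. SPCH in shoots drops from light to darkness and is higher under water than in darkness, while STOMAGEN in shoots is lowest under water, and roots stay between 3.43 and 3.95.

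Markers with a probe set followed the tissue labels. A gene is called measured here only if the probe table used names it alone, and 8730 tested probe sets have values but no name in that table. Of 8 mesophyll markers listed, 1 could be looked up in this way, the Rubisco activase gene RCA, which read 12.87 to 14.21 on shoot arrays and 5.42 to 7.70 on root arrays. Of 11 root markers 2 could be looked up. The root hair expansin EXPA7 read 6.60 to 9.88 in roots and 4.25 to 5.02 in shoots. PYK10 read 9.72 to 13.23 in roots and 7.99 to 9.48 in shoots, so its tissues lay closer together. None of the 11 guard cell and 6 epidermal markers listed could be looked up by name, so the share of these cells in the shoot RNA was not tested.

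Darkness lowered both transcripts in shoots. SPCH read 4.32 and 4.53 after 7 h of darkness, below both light arrays, and had fallen by 1.59 (SE 0.16, adjusted p = 1.0e-07). After 24 h it read 4.17 and 3.97, a fall of 1.95 from light (SE 0.16, adjusted p = 5.5e-09). STOMAGEN read 7.88 and 7.78 after 7 h and 8.01 and 7.71 after 24 h, again below both light arrays. It had fallen by 1.54 at 7 h (SE 0.13, adjusted p = 1.8e-08) and by 1.51 at 24 h (SE 0.13, adjusted p = 1.8e-08). In linear terms SPCH was 3.01-fold lower than in light at 7 h, and STOMAGEN 2.90-fold and then 2.84-fold lower. The ratio for SPCH at 24 h, 3.86-fold, may be an underestimate because the dark level was then not called apart from that of roots. Falls of this kind were common, since 24% of all probe sets were called lower at 7 h and 25.4% at 24 h (48.9% and 52.4% either way). The light arrays were taken at 0 h and serve both times, so darkness and time since 0 h cannot be told apart in these comparisons.

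Between 7 h and 24 h of darkness neither level changed by the test. SPCH differed by −0.36 (95% interval −0.69 to −0.03, adjusted p = 0.14), with its 24 h arrays below its 7 h arrays. STOMAGEN differed by 0.03 (95% interval −0.25 to 0.31, adjusted p = 0.93), and its arrays of the 2 times overlapped. For that comparison 18.4% of probe sets were called.

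By 24 h of darkness SPCH in shoots lay close to the root level. Shoot arrays at 4.17 and 3.97 stood just above root arrays of the same group at 3.95 and 3.89, a difference of 0.15 that was not called (95% interval −0.18 to 0.48, adjusted p = 0.49). If the root signal is background alone, that left little range in which a lower SPCH level could be measured. After 7 h of darkness the difference was still 0.66 (SE 0.16, adjusted p = 0.0018). STOMAGEN stayed far above its root level, by 4.07 at 7 h and 4.33 at 24 h of darkness (SE 0.13 each). Darkness at these times called 50.8% and 48.7% of probe sets between the tissues. Under water both genes were called higher in shoots than in roots, SPCH by 1.48 at 7 h and 0.88 at 24 h (adjusted p = 2.6e-07 and 0.00012) and STOMAGEN by 8.01-fold and 8.14-fold (adjusted p = 1.8e-12 and 1.5e-12). There 49.1% and 50.4% of probe sets were called.

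Water changed the 2 transcripts in opposite directions in shoots. After 7 h under water SPCH read 5.19 and 5.15, above both dark arrays of 4.32 and 4.53, and had risen by 0.75 against darkness (SE 0.16, 95% interval 0.41 to 1.08, adjusted p = 0.0030). STOMAGEN read 6.47 and 6.79, below both dark arrays of 7.88 and 7.78, and had fallen by 1.20 (SE 0.13, 95% interval −1.48 to −0.92, adjusted p = 5.3e-06). SPCH was thus 1.68-fold higher and STOMAGEN 2.30-fold lower under water than in darkness. Across all probe sets 6.52% were called higher and 7.14% lower, 13.7% in all. The rise of SPCH was not called without dark replicate 1, when it measured 0.64 (adjusted p = 0.052). STOMAGEN kept its call whichever of the 4 arrays was left out.

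At 24 h the fall of STOMAGEN under water persisted, whereas the difference in SPCH was not called. STOMAGEN read 6.74 and 6.78 against 8.01 and 7.71 in darkness, a fall of 1.09 (SE 0.13, adjusted p = 1.8e-05), or 2.13-fold. SPCH read 4.45 and 4.56 against 4.17 and 3.97, a difference of 0.44 (SE 0.16, 95% interval 0.11 to 0.77, adjusted p = 0.085). Both SPCH arrays under water lay above both dark arrays, but the test did not call it. In this comparison 5.9% of probe sets were called higher and 6.02% lower, 11.9% in all.

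Whether the effect of water itself changed with time was tested in the same fit. For SPCH the effect at 24 h minus that at 7 h was −0.31 (95% interval −0.78 to 0.16, adjusted p = 0.64). For STOMAGEN it was 0.10 (95% interval −0.29 to 0.50, adjusted p = 0.89). Neither was called, as was true of most probe sets, of which 2% were called. The level of SPCH in submerged shoots did fall between the times, by 0.67 (SE 0.16, adjusted p = 0.0064), a comparison in which 18% of probe sets were called. STOMAGEN in submerged shoots differed by 0.13 (adjusted p = 0.59), and its arrays of the 2 times overlapped.

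Set against light, both transcripts were lower in submerged shoots at both times. SPCH differed by −0.85 at 7 h (SE 0.16, adjusted p = 0.00016) and by −1.51 at 24 h (SE 0.16, adjusted p = 1.6e-07). STOMAGEN differed by −2.74 at 7 h (SE 0.13, adjusted p = 6.4e-12) and by −2.60 at 24 h (SE 0.13, adjusted p = 1.2e-11), or 6.66-fold and 6.07-fold. These comparisons called 51.8% and 53.2% of probe sets. They share arrays with the comparisons above, namely the light arrays with those of darkness and the submerged arrays with those of water. The comparisons of darkness and of water at each time in turn share the dark arrays, with opposite sign.

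**Figure D2:**
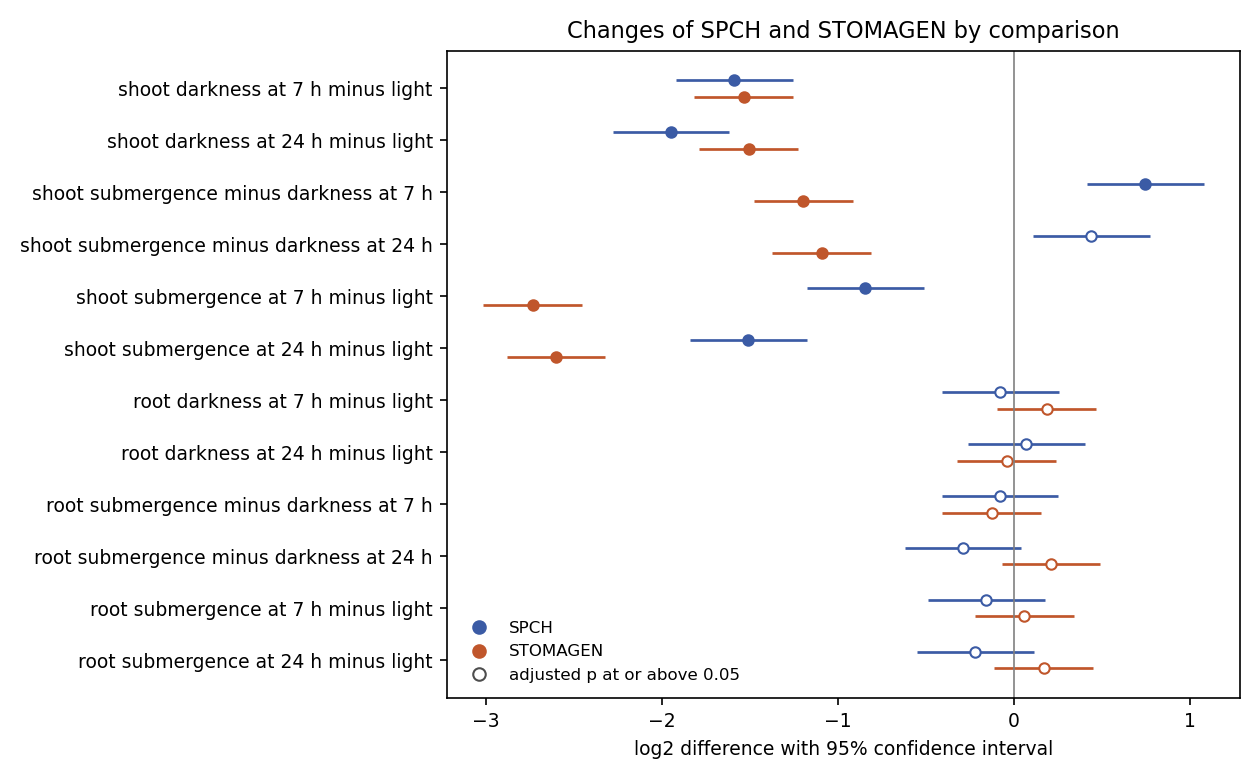
Log2 differences of SPCH (blue) and STOMAGEN (orange) in 12 comparisons of shoots and roots, with 95% confidence intervals from the limma fit; filled points were called and open points were not. In shoots both genes fall in darkness. They part under water at 7 h, with SPCH at 0.75 and STOMAGEN at −1.20, and every root interval includes 0.

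The order of the shoot levels therefore differed between the genes. For SPCH it ran from light (6.02 ± 0.36, mean ± SD, n = 2) to water at 7 h (5.17 ± 0.03), water at 24 h (4.51 ± 0.07), darkness at 7 h (4.43 ± 0.15) and darkness at 24 h (4.07 ± 0.14). The arrays of water at 24 h and darkness at 7 h overlapped, and darkness at 24 h was not called apart from darkness at 7 h. For STOMAGEN light (9.37 ± 0.09) stood first, followed by darkness at 24 h (7.86 ± 0.21) and 7 h (7.83 ± 0.07), and then by water at 24 h (6.76 ± 0.03) and 7 h (6.63 ± 0.23). Its pair of dark groups overlapped, as did its pair of submerged groups. Neither pair was called apart (95% intervals −0.25 to 0.31 and −0.15 to 0.41), so the order within each pair was not settled.

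The level above that of roots was also put on a linear scale, a measure chosen after the values were seen. For each shoot array the mean root value of the same condition was subtracted, and the remainder was given as a share of the mean in light. The light arrays themselves stood at 122.6% and 77.4% of that mean for SPCH and at 104.5% and 95.5% for STOMAGEN. SPCH kept 12.3% and 18.5% on the dark arrays at 7 h and 45.9% and 44.0% on the submerged arrays. At 24 h it kept 5.51% and 1.01% in darkness and 18.5% and 21.6% under water. STOMAGEN kept 34.2% and 31.9% in darkness at 7 h and 11.8% and 15.2% under water. At 24 h its dark arrays kept 37.9% and 30.5% and its submerged arrays 14.5% and 14.9%. On this scale the dark arrays had the lowest shares of SPCH at each time, and the submerged arrays the lowest shares of STOMAGEN. At 24 h, however, SPCH in shoots was not called between water and darkness, nor between dark shoots and dark roots. The root means subtracted for SPCH at 24 h were 3.92 in darkness and 3.63 under water. That root difference was not called either, and it widens the gap between the shares.

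In roots neither transcript was called in any comparison. Limma called 0 of 9 root comparisons for SPCH and 0 of 9 for STOMAGEN, and 0 of each passed an unadjusted p of 0.05. Differences ran from −0.29 to 0.15 for SPCH and from −0.23 to 0.34 for STOMAGEN, and their 95% intervals stayed within −0.68 to 0.48 and −0.51 to 0.73. In the same tissue water called 8.69% of probe sets at 7 h and 3.22% at 24 h, and darkness called 46.9% and 52.8%. Submerged roots against light called 45.5% and 51.7%, and the comparisons between 7 h and 24 h called 22.8% in darkness, 13.8% under water and 1.45% for the change of the effect of water. With median centring of the arrays STOMAGEN was called in submerged roots at 24 h against light, at 0.32 (adjusted p = 0.047) in place of 0.17.

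The shoot change was tested against the root change. For STOMAGEN the effect of water was lower in shoots than in roots by −1.07 at 7 h (SE 0.19, adjusted p = 0.0016) and −1.30 at 24 h (SE 0.19, adjusted p = 0.00026). For SPCH it was higher in shoots by 0.83 at 7 h (SE 0.22, adjusted p = 0.029), and at 24 h the difference of 0.73 was not called (adjusted p = 0.059). These comparisons called 7.68% and 6.86% of probe sets. The SPCH call at 7 h ended without shoot dark replicate 1 (adjusted p = 0.12), shoot submerged replicate 1 (0.082) or replicate 2 (0.072), root dark replicate 2 (0.088) or root submerged replicate 1 (0.12). The shoot minus root effect of darkness was called for both genes at both times, at −1.51 and −2.02 for SPCH (adjusted p = 2.7e-05 and 8.4e-07) and −1.72 and −1.47 for STOMAGEN (adjusted p = 9.2e-07 and 5.2e-06), with 38.8% and 39.6% of probe sets called. If the root signal is background alone, these values restate the shoot falls. They do not show how root cells that express the genes would respond.

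Other genes of the pathway were looked up in a list of 45 that covers ligands, proteases, receptors, kinases, transcription factors and polarity or division genes. Only 8 of them had a probe set naming 1 gene, SPCH and STOMAGEN among them, and none of the 7 receptors or 8 kinases listed could be looked up by name. Those genes are not analysed here. In shoots after 7 h under water 3 of these 8 were called higher and 2 lower than in darkness. The higher ones included SPCH and the lower ones STOMAGEN. The median change of the 8 was 0.35 against −0.0073 over all probe sets, of which 6.52% were called higher and 7.14% lower. At 24 h limma called 0 higher and 2 lower, with a median of −0.05, and STOMAGEN and ATSBT5.2 were those 2, against 5.9% and 6.02% of all probe sets. In darkness 2 were called higher and 3 lower than in light at 7 h, and again at 24 h. Of all probe sets 24.9% were called higher and 24% lower at 7 h, and 27% and 25.4% at 24 h, so these counts lie near the background.

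The later bHLH factor MUTE was also lower in darkness than in light. Its shoot arrays read 4.93 and 4.98 in light, 4.24 and 4.32 in darkness at 7 h and 3.89 and 4.55 at 24 h. It fell by 0.68 at 7 h (SE 0.17, adjusted p = 0.0031) and by 0.73 at 24 h (adjusted p = 0.0015), and without dark replicate 1 at 24 h the second measured −0.40 and was not called (0.060). Without dark replicate 2 it measured −1.07. Under water at 7 h it read 4.70 and 4.76, above both dark arrays, a difference of 0.45 that was not called (95% interval 0.09 to 0.82, adjusted p = 0.10). At 24 h under water it read 4.33 and 4.35, between the dark arrays (0.12, adjusted p = 0.75). Its root arrays ran from 3.26 to 3.99, and 1 of the 10 shoot arrays lay within that range. In darkness MUTE in shoots was not called above roots at 7 h or 24 h (limma adjusted p = 0.088 and 0.071).

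FAMA, listed as FMA in the RefSeq annotation, was not called in darkness. It read 6.64 and 6.08 in light, 6.16 and 5.97 in darkness at 7 h and 6.04 and 6.15 at 24 h, and the light and dark arrays overlapped. The differences were −0.29 at 7 h and −0.26 at 24 h (adjusted p = 0.14 and 0.18). They measured −0.57 and −0.54, and were called, without light replicate 2. Without light replicate 1 they measured −0.013 and 0.018. Under water at 7 h it read 6.51 and 6.67 and had risen by 0.52 against darkness (SE 0.15, adjusted p = 0.029). That call ended with any 1 of the 4 shoot arrays left out (adjusted p up to 0.20) and with shoot arrays alone in the fit (0.064). At 24 h the difference was 0.34 (adjusted p = 0.19). Its root arrays ran from 4.03 to 4.57, below every shoot array.

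ATSBT5.2, a subtilase also known as CRSP that processes the inhibitory peptide EPF2, moved the other way in darkness. Shoots read 5.89 and 5.71 in light, 8.25 and 7.87 in darkness at 7 h and 7.75 and 7.50 at 24 h. It rose by 2.26 at 7 h (SE 0.18, adjusted p = 6.8e-09) and by 1.83 at 24 h (SE 0.18, adjusted p = 9.3e-08). Under water at 7 h it read 8.87 and 8.64, a further rise of 0.69 (adjusted p = 0.015) that was not called without dark replicate 2 (0.19) or submerged replicate 1 (0.13). At 24 h it read 6.53 and 6.48 under water and had fallen by 1.12 against darkness (SE 0.18, adjusted p = 0.00037). Its effect of water thus changed with time by −1.81 (SE 0.26, adjusted p = 0.00093). Unlike both SPCH and STOMAGEN it was higher in roots, which read 9.37 to 10.65, than in shoots.

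Among the remaining listed genes, ATBRXL2 belongs to a family of polarity proteins in the lineage. Its shoot arrays read 5.15 and 4.89 in light, 5.76 and 5.55 in darkness at 7 h and 5.09 and 4.94 under water, so that the dark arrays stood above the others. It rose by 0.64 in 7 h of darkness (SE 0.15, adjusted p = 0.0016) and fell by 0.64 under water against that darkness (SE 0.15, adjusted p = 0.0066). Both differences rest on the same 2 dark arrays, so they are not separate observations. The fall was not called after leaving out dark replicate 1 or submerged replicate 2. At 24 h neither difference was called (−0.05 for darkness and −0.31 for water). AGL16, a MADS-box gene that promotes higher-order divisions in the lineage, rose by 0.50 after 24 h of darkness (adjusted p = 0.021). That call ended without light replicate 2 (0.14), without dark replicate 1 (0.067) or replicate 2 (0.081) at 24 h, and with quantile normalization (0.062). It was not called under water (0.24 at 7 h and 0.02 at 24 h). AT5G10310, the other ligand-list gene measured, was called in none of these 4 shoot comparisons, with differences from −0.23 to 0.23.

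**Figure D3:**
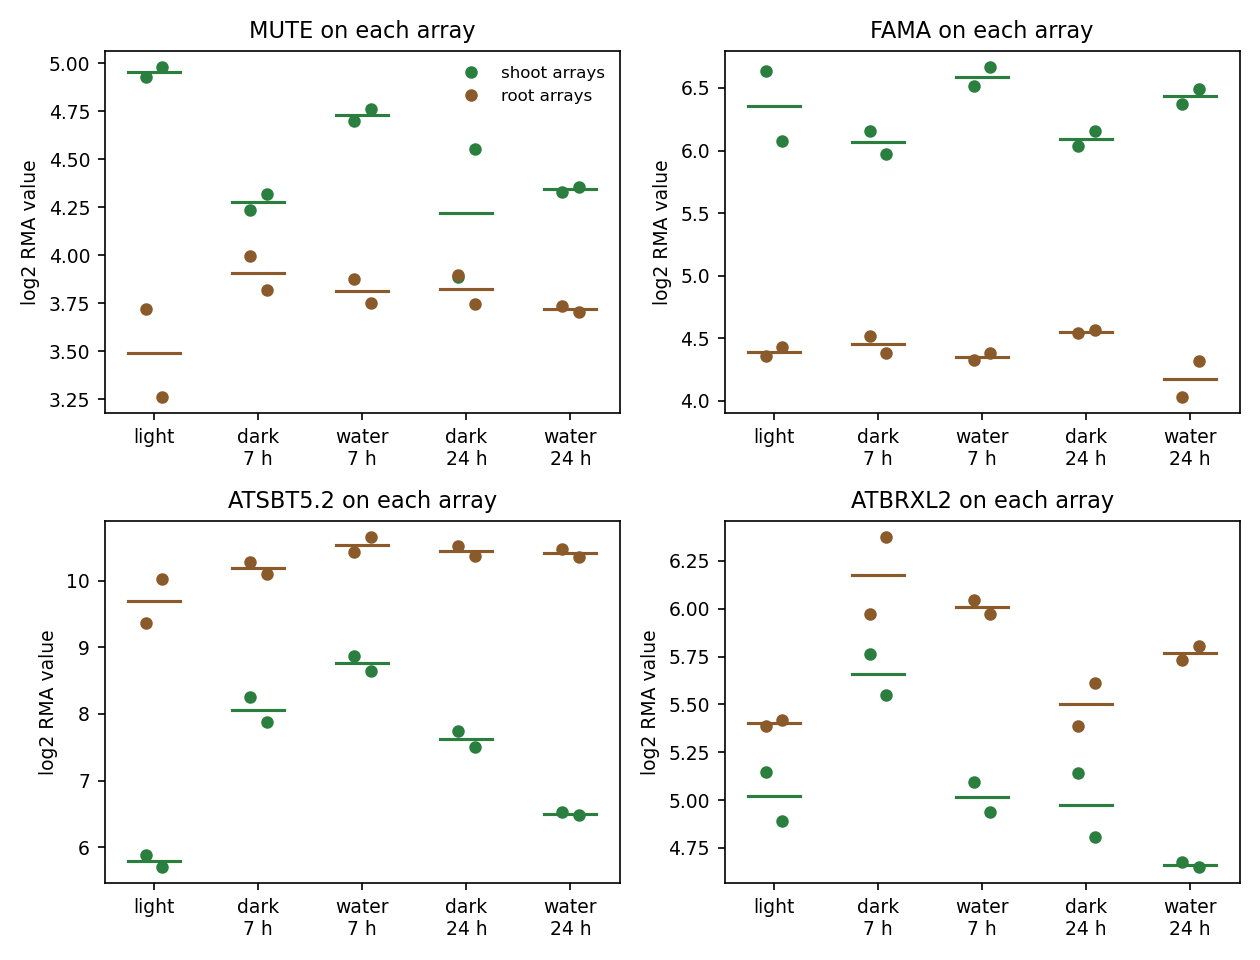
Log2 RMA values of MUTE, FAMA, ATSBT5.2 and ATBRXL2 on each of the 20 arrays by condition, with shoots in green and roots in brown; points are arrays and bars are means of 2 arrays, and each panel has its own axis. MUTE and FAMA are higher in shoots than in roots on average, and ATSBT5.2 in shoots is lowest in light and highest under water at 7 h.

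Because STOMAGEN is made in green tissue, 9 nuclear photosynthesis genes were set beside it, a list made after the probe table and the values of RCA had been seen. Their mean log2 value in shoots was 13.44 and 13.41 in light, 13.01 and 13.04 in darkness at 7 h and 12.54 and 12.53 under water. At 24 h it was 12.47 and 12.36 in darkness and 12.21 and 12.32 under water. Under water at 7 h 2 of the 9 were called lower and 0 higher, with a median change of −0.47 and a range of −1.08 to −0.10. STOMAGEN at −1.20 (SE 0.13) lay just below that range, by less than its SE. Of all probe sets 7.14% were called lower there. At 24 h 0 of the 9 were called, with a range of −0.48 to 0.21, against −1.09 for STOMAGEN and 6.02% of all probe sets called lower. In darkness 1 of 9 was called lower at 7 h and 3 of 9 at 24 h, where 24% and 25.4% of all probe sets were called lower. LHCB4.3 changed most, by −2.24 and −5.31. The means of these 9 genes lay far up the scale, where the highest value on any array was 15.02, and RCA read 14.21 on both light shoot arrays. Whether changes are compressed at such levels was not tested. The part of green tissue in the change of STOMAGEN was not tested either.

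On root arrays the same 9 genes averaged 5.35 and 6.12 in light and between 6.63 and 7.68 in the dark and submerged groups, and 6 of the 9 were called higher in dark than in light roots at 7 h and 4 at 24 h. Of all probe sets 24.8% and 27.8% were called higher in roots at those times. STOMAGEN stayed between 3.43 and 3.82 on all of those arrays.

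SPCH and STOMAGEN were correlated with Pearson's r of 0.51 over the 10 shoot arrays and 0.79 over all 20 arrays. Over the 10 root arrays, where both genes read low, r was −0.43. The value over all 20 arrays carries the difference between tissues, and arrays of one group share their treatment, so all are descriptions. The genes whose shoot profile was most like that of each were sought among 5583 probe sets naming 1 gene whose shoot arrays spanned at least 1 log2 unit. For SPCH they were AT3G53650 (r = 0.978), AT1G06830 (0.976), AT3G55605 (0.969), AT1G42480 (0.968) and AT4G12060 (0.968). AT1G06830 had the widest span of these, from 9.31 ± 0.02 in light to 5.67 ± 0.17 in darkness and 7.31 ± 0.13 under water at 7 h, and 4.70 ± 0.20 and 5.29 ± 0.16 at 24 h (mean ± SD, n = 2).

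For STOMAGEN they were AT1G75900 (r = 0.986), AT5G55960 (0.984), AT5G43150 (0.983), AT5G16990 (0.982) and AT2G03310 (0.982). AT1G75900 went from 9.97 ± 0.05 in light to 6.94 ± 0.12 in darkness and 5.17 ± 0.07 under water at 7 h. It stood at 7.39 ± 0.20 and 5.43 ± 0.16 at 24 h. Over all 20 arrays other genes came first, and 0 of the 5 were shared for either gene.

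**Figure D4:**
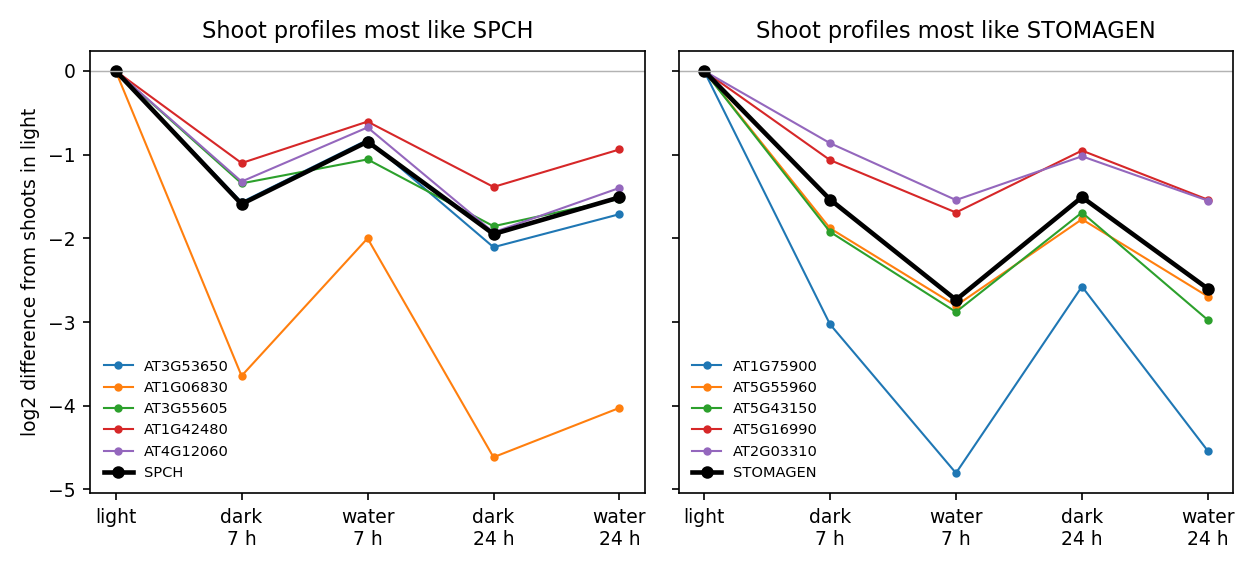
Mean log2 difference from light in shoots for SPCH (left, black) and STOMAGEN (right, black) with the 5 genes most like each over the 10 shoot arrays; lines join the group means only to guide the eye. The group means of the SPCH set lie higher under water than in darkness and those of the STOMAGEN set lower, as the choice by correlation fixes, and at 24 h the difference of SPCH itself was not called.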

How the data were processed

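The deposited table held log2 values for 22810 probe sets on 20 arrays, made by the authors with RMA in the affy package, per the submitters' processing notes. The versions, the probe definition file and the genome build are not given in the sources used here. Array medians lay between 6.14 and 6.41, replicate arrays correlated with r of 0.992 to 0.996 over probe sets, and no further normalization was applied. Leaving out 64 control probe sets left 22746. Gene names came from a platform table of 14016 probe sets, 13513 with 1 gene, 503 with several and 8730 tested probe sets outside it, and 13436 matched a locus of RefSeq TAIR10.1.

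Limma (3.58.1, R 4.3.3, with lmFit and eBayes) fitted 10 group means over all arrays, with 10 residual and 7.04 prior degrees of freedom. Its two-sided p-values were adjusted by Benjamini and Hochberg within each of 27 comparisons. The code was also run on simulated data with independent noise and few changed probe sets. That setting differs from these data, so it does not test the calls given here. Genes were named by a rule: both members always, up to 3 called genes per list and shoot comparison with the largest changes, and the 5 most similar shoot profiles. AT5G10310 and values that were not called are given outside the rule because few list genes were measured. Members and lists were chosen with earlier results of these data known.

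The labels do not say whether a replicate number marks the same experiment in every group, and numbers were not taken to pair arrays, since only 5 of 45 pairs of groups had deviations correlated over 0.1. Tissue samples of one replicate experiment may share plants, which the labels do not state. Alternatives were a filter on low values, 1-gene probe sets, other normalizations, arrays of 1 tissue, a variance trend with robust estimation, a replicate block and leaving out each array.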

Additional observations from a re-analysis of the deposited data

Results flagged for a closer look

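The effects of a treatment in shoots and roots differed by the test of the difference itself in 7 cases, each given as the shoot change minus the root change. The effect of water on SPCH at 24 h was not called (0.73, limma adjusted p = 0.059). Of all probe sets, 7.68% and 6.86% were called for water at 7 h and 24 h, and 38.8% and 39.6% for darkness. For SPCH the effect of water at 7 h differed by 0.83 (adjusted p = 0.029), and that of darkness by −1.51 at 7 h (adjusted p = 2.7e-05) and −2.02 at 24 h (adjusted p = 8.4e-07). The SPCH call for water was lost in several fits with 1 array left out. For STOMAGEN the effect of water differed by −1.07 at 7 h (adjusted p = 0.0016) and −1.30 at 24 h (adjusted p = 0.00026). The effect of darkness on STOMAGEN differed by −1.72 at 7 h (adjusted p = 9.2e-07) and −1.47 at 24 h (adjusted p = 5.2e-06). None of the root changes in these cases was called on its own, and both genes read low on every root array. Whether the root signal was background alone was not tested. If it was, a fall in roots could not have been measured, and these values largely restate the shoot changes. With 2 arrays a group, no single array was tested for standing apart.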

How the results depend on the processing

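Of 333 values of SPCH and STOMAGEN under other settings, 328 kept their direction and their side of the threshold, as did 249 of 264 with 1 array left out. Among the other settings only quantile normalization and median centring can move a difference. The rest leave the differences as they are, so directions there were fixed in advance. The totals also include many comparisons that were not called. The replicate block changed no call (SPCH under water at 7 h in shoots 0.75, adjusted p = 0.0043, and STOMAGEN −1.20, adjusted p = 1.1e-05). SPCH, MUTE and AT5G10310 did not pass the filter on low values, which kept 15129 probe sets, and have no value there.

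A variance trend with robust estimation called the shoot minus root effect of water on SPCH at 24 h (0.73, adjusted p = 0.039). Median centring moved the root difference of 24 h darkness and light by 0.14 and the shoot minus root difference in light by 0.17. It called STOMAGEN in submerged roots at 24 h against light (0.32, adjusted p = 0.047). Signs turned for values near 0. SPCH in dark roots at 24 h measured −0.029 with quantile normalization, and STOMAGEN there 0.099 with median centring, which also gave 0.0086 for SPCH in submerged roots between the times. ATBRXL2 in shoots at 24 h of darkness measured 0.011 with quantile normalization and 0.020 with median centring, and AT5G10310 under water at 7 h 0.0021 with median centring. The cause was not tested.

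With 1 array left out the lone array of a group was assumed to vary like the others. SPCH in shoots under water at 7 h ranged from 0.64 to 0.85 and its shoot minus root difference from 0.69 to 0.96. Ranges that crossed 0 were −0.21 to 0.051 for SPCH in roots under water at 7 h and −0.22 to 0.094 between the times under water. For STOMAGEN they were −0.14 to 0.052 in roots at 24 h of darkness, and in shoots −0.12 to 0.18 between the times in darkness, −0.029 to 0.29 between the times under water and −0.057 to 0.27 for the change of the effect of water. In shoots they were −0.16 to 0.11 for AT5G10310 at 7 h and −0.21 to 0.45 for MUTE and −0.077 to 0.12 for AGL16 at 24 h of water, and −0.21 to 0.12 for ATBRXL2 and −0.54 to 0.018 for FAMA at 24 h of darkness. The share of probe sets called in shoots under water at 7 h ranged from 8.37% to 10.6% with 1 array left out and from 11.4% to 20.4% under other settings, against 13.7%. With 1 array left out it ranged from 7.11% to 8.50% in shoots at 24 h, against 11.9%, and in roots from 3.05% to 5.55% at 7 h, against 8.69%, and from 1.21% to 2.28% at 24 h, against 3.22%.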
